A study of Mus musculus with 8 samples.

Results

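The genes of the phosphoinositide 3-kinase (PI3K) subunits were followed across 8 primary mammary tumours of transgenic FVB mice, each measured on 1 Affymetrix whole-transcript array. The 9 members were taken as a fixed list of gene symbols: the catalytic subunits Pik3ca, Pik3cb, Pik3cd and Pik3cg, the regulatory subunits Pik3r1, Pik3r2, Pik3r3 and Pik3r5, and the class II kinase Pik3c2b. All 9 had exactly 1 probe with a single gene symbol, among 22180 genes with a probe of their own, and all 9 lay above the limit for dim genes (a mean log2 signal of 4.06) and were among the 16635 genes tested. All tumours carried NeuNT, an activated form of the rat ErbB2 receptor, and received no treatment. In 4 tumours the genotype was NeuNT alone, and in 4 it was NeuNT/H1074R, which adds a mutation of p110α, the product of Pik3ca (the series title writes the mutation as H1047R). The labels give neither the age of the mice, nor the promoter that drives a transgene, nor whether tumours came from separate mice, so every p-value speaks only of the spread among these samples, some of which may be technical.

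Class I PI3Ks are dimers of a catalytic p110 subunit and a regulatory subunit, and they phosphorylate the membrane lipid PIP2 to PIP3, which recruits AKT and other kinases. In class IA, p110α (Pik3ca), p110β (Pik3cb) and p110δ (Pik3cd) bind the regulatory proteins p85α (Pik3r1), p85β (Pik3r2) or p55γ (Pik3r3), whose SH2 domains dock on phosphorylated receptors such as ErbB3, the partner of ErbB2. In class IB, p110γ (Pik3cg) binds p101 (Pik3r5) or p84 (Pik3r6) and is activated by G protein-coupled receptors. The first pair of catalytic subunits is made in most tissues, whereas p110δ, p110γ and p101 are best known from white blood cells. PI3K-C2β, the product of Pik3c2b, is a class II enzyme that works without these regulatory subunits.

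The comparison asks whether tumours with mutant p110α carry another level, or another balance, of these subunits. None of the 9 transcripts differed between genotypes beyond the spread of the tumours, and 0 of 9 passed the test (limma, adjusted p from 0.978 to 0.988), where 0% of all genes tested passed. At an unadjusted p under 0.05 there were also 0 members, against 3.82% of genes tested (635 genes), and testing each gene alone, without limma's pooled variance, gave 0 members too. The values of the genotypes overlapped for all 9 members, while they were apart for 2.69% of genes tested. Means were higher in NeuNT/H1074R for 4 members and lower for 5, with a median log2 difference of −0.07, against −0.003 over all genes tested. What stood out was instead how unequally the subunits varied from tumour to tumour. By the SD within genotypes, Pik3ca was among the steadiest genes tested (percentile 2.42), while Pik3r3, Pik3cg and Pik3r1 were among the more variable (percentiles 95.3, 91.8 and 89.2). Pik3cd moved with the markers of white blood cells by Pearson's r and Spearman's rho, and Pik3r5 by r only. Either relation no longer passed when certain single tumours were left out. The share of all genes tested with such an r was not computed.

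**Figure D1:**
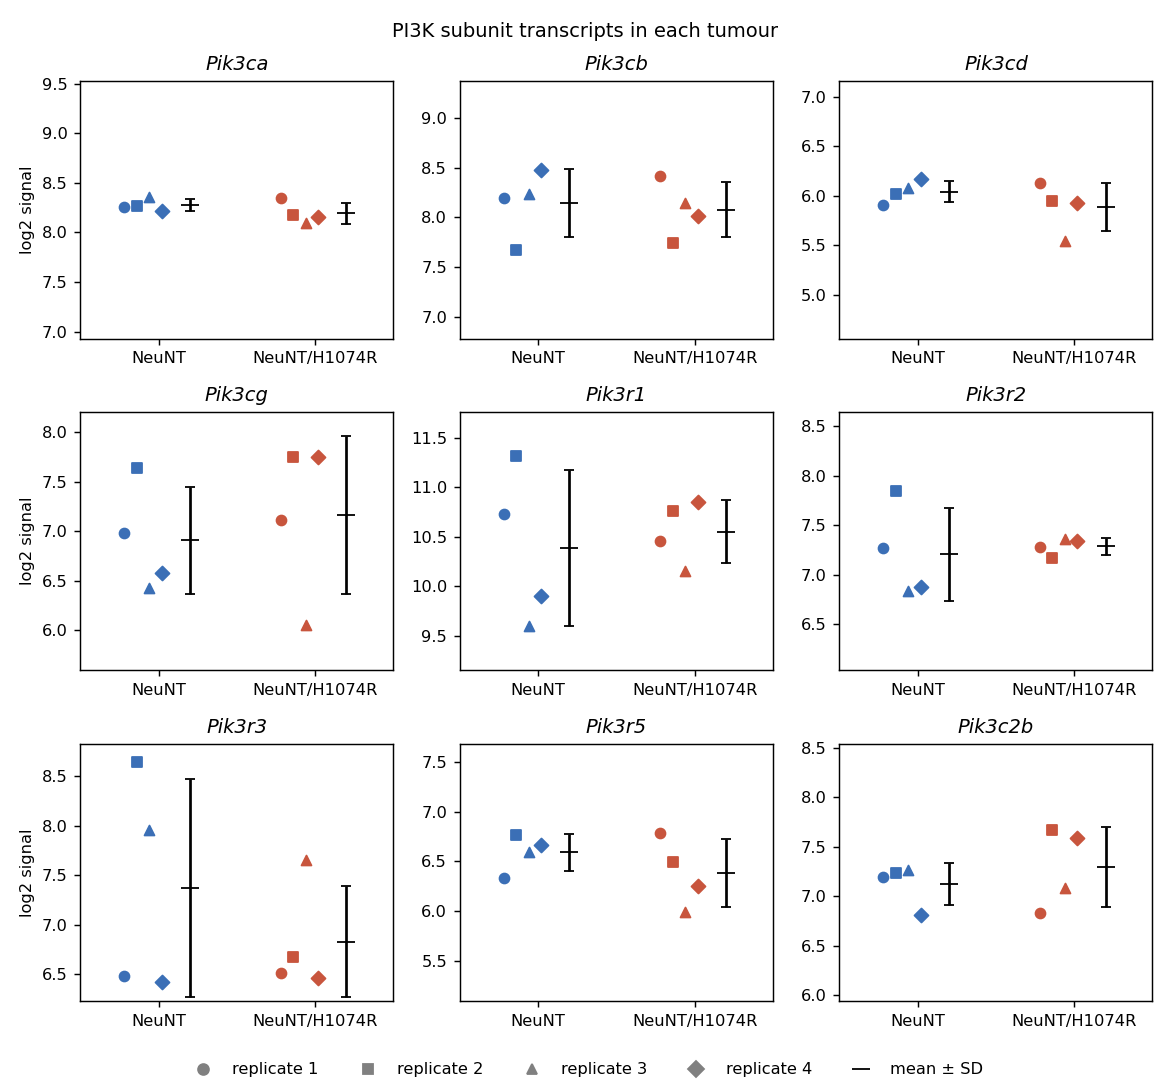
Log2 signal (y axis) of each of the 9 members in the 4 NeuNT and 4 NeuNT/H1074R tumours (x axis), a marker shape per replicate, with the mean ± SD beside each group; every panel spans the same height. Pik3ca stays within 8.10 to 8.36, while Pik3r3 reaches from 6.42 to 8.64, and the groups overlap in every panel.

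Pik3ca, which encodes the subunit that carries the mutation, had log2 signals of 8.26, 8.26, 8.36 and 8.22 in NeuNT replicates 1 to 4 and 8.35, 8.18, 8.10 and 8.16 in NeuNT/H1074R replicates 1 to 4. All 8 tumours thus lay within 0.26 of one another, and the one NeuNT/H1074R tumour at the upper end, replicate 1, made the groups overlap. The means were 8.28 ± 0.06 (SD, n = 4) and 8.20 ± 0.11 (SD, n = 4), a log2 difference of −0.08 with a 95% interval from −0.33 to 0.17 (limma, adjusted p = 0.978). On the linear scale that interval runs from 0.798-fold to 1.12-fold. The SD within genotypes, 0.087, compares with a median of 0.248 over all genes tested, which 7 of the 9 members exceeded. Whether the probe reads the transcript of the mutant allele is not given in the labels, so Pik3ca does not serve as a check of the genotype.

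Pik3cb, the other broadly made catalytic subunit, stood at 8.20, 7.67, 8.24 and 8.48 in NeuNT and at 8.42, 7.75, 8.14 and 8.01 in NeuNT/H1074R replicates 1 to 4. Its lowest values were in replicate 2 of each genotype, 1 tumour per group, and the groups covered nearly the same range. The log2 difference was −0.07 ± 0.21 (SE), with a 95% interval from −0.54 to 0.41 (limma, adjusted p = 0.988), and it turned to 0.04 without NeuNT replicate 4 and to 0.04 without NeuNT/H1074R replicate 2, and was −0.23 without NeuNT replicate 2.

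Among the class IA regulatory genes, Pik3r1, which encodes p85α and its shorter forms p55α and p50α, had signals of 10.73, 11.31, 9.60 and 9.90 in NeuNT and 10.45, 10.76, 10.15 and 10.85 in NeuNT/H1074R replicates 1 to 4. Both the highest and the lowest tumour were NeuNT, in replicates 2 and 3, and the NeuNT/H1074R tumours lay between them. The log2 difference of 0.17 ± 0.36 (SE) had a 95% interval from −0.66 to 0.996 (limma, adjusted p = 0.988), and it was −0.10 without NeuNT replicate 3 and 0.48 without NeuNT replicate 2. A single probe cannot tell the p85α transcript from those of the shorter forms.

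Pik3r2, the gene of p85β, stood at 7.27, 7.84, 6.83 and 6.87 in NeuNT and at 7.28, 7.17, 7.36 and 7.34 in NeuNT/H1074R replicates 1 to 4. The NeuNT/H1074R tumours were close together (SD 0.09), and NeuNT tumours spread to either side of them (SD 0.47). The difference of 0.08 ± 0.22 (SE) had a 95% interval from −0.43 to 0.59 (limma, adjusted p = 0.988), and was −0.04 and −0.03 without NeuNT replicates 3 and 4 in turn and 0.30 without NeuNT replicate 2. The difference in spread between genotypes was not tested.

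Pik3r3, the gene of p55γ, had the widest range of the 9 members. Its signals were 6.48, 8.64, 7.95 and 6.42 in NeuNT and 6.52, 6.67, 7.66 and 6.47 in NeuNT/H1074R replicates 1 to 4. In 5 tumours it lay between 6.42 and 6.67, and in NeuNT replicates 2 and 3 and NeuNT/H1074R replicate 3 between 7.66 and 8.64, so that high and low tumours occurred in both genotypes. The log2 difference of −0.54 ± 0.53 (SE) had a 95% interval from −1.75 to 0.66 (limma, adjusted p = 0.978), with values from −0.86 to −0.12 when single tumours were left out, the smallest without NeuNT replicate 2. The SD within genotypes, 0.874, was the largest of the 9 members.

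**Figure D2:**
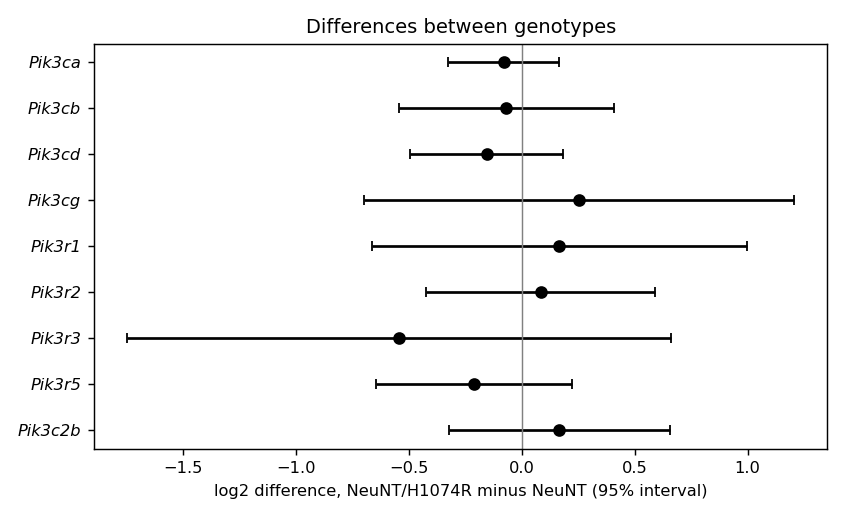
Log2 difference between genotypes, NeuNT/H1074R minus NeuNT (x axis), for each member (y axis), with limma's 95% interval as the bar. All 9 intervals include 0; that of Pik3ca is the narrowest, from −0.33 to 0.17, and that of Pik3r3 the widest, from −1.75 to 0.66.

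Pik3cd, the gene of p110δ, had signals of 5.91, 6.01, 6.07 and 6.17 in NeuNT and 6.13, 5.94, 5.55 and 5.92 in NeuNT/H1074R replicates 1 to 4. NeuNT/H1074R replicate 3 was the lowest tumour and the others lay close together. The log2 difference was −0.16 ± 0.15 (SE), with a 95% interval from −0.49 to 0.18 (limma, adjusted p = 0.978), moving to −0.04 when NeuNT/H1074R replicate 3 was left out and to −0.24 when replicate 1 was.

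Pik3r5, the gene of the p110γ partner p101, followed a similar order, with 6.33, 6.76, 6.60 and 6.67 in NeuNT and 6.79, 6.49, 5.99 and 6.25 in NeuNT/H1074R replicates 1 to 4. The same NeuNT/H1074R tumour, replicate 3, was lowest, NeuNT/H1074R replicate 1 was the highest of all, and the groups overlapped. The log2 difference was −0.21 ± 0.19 (SE), with a 95% interval from −0.65 to 0.22 (limma, adjusted p = 0.978), moving to −0.08 when NeuNT/H1074R replicate 3 was left out and to −0.35 when replicate 1 was.

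Pik3cg, whose product p110γ is the catalytic partner of p101, ordered the tumours differently. It stood at 6.98, 7.64, 6.43 and 6.58 in NeuNT and at 7.11, 7.75, 6.05 and 7.75 in NeuNT/H1074R replicates 1 to 4. High values occurred in NeuNT replicate 2 and NeuNT/H1074R replicates 2 and 4, and the lowest in NeuNT/H1074R replicate 3. The log2 difference of 0.25 ± 0.42 (SE) had a 95% interval from −0.70 to 1.21 (limma, adjusted p = 0.980), and its SD within genotypes was 0.683. Leaving out NeuNT/H1074R replicate 3 gave 0.63, and leaving out replicate 2 or replicate 4 of that genotype gave 0.06.

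Pik3c2b stood at 7.19, 7.24, 7.27 and 6.81 in NeuNT and at 6.83, 7.67, 7.08 and 7.59 in NeuNT/H1074R replicates 1 to 4. NeuNT/H1074R replicates 2 and 4 were above every NeuNT tumour, and replicates 1 and 3 were not. The log2 difference of 0.17 ± 0.21 (SE) had a 95% interval from −0.32 to 0.65 (limma, adjusted p = 0.978). It ran from 0.04 without NeuNT/H1074R replicate 2 to 0.32 without NeuNT/H1074R replicate 1, and was 0.06 without NeuNT replicate 4. NeuNT/H1074R replicates 1 and 3 were also the tumours with high skeletal muscle markers, with a mean over 7 tested of 8 listed genes of 1.69 and 1.20 above the average tumour, against −0.68 to −0.25 in the other 6. All 7 were higher in NeuNT/H1074R by the means, 5 of them without overlap, against 2.69% of all genes tested, and 0 passed. Their basal markers were high as well, at 1.11 and 1.52 (6 genes), as in NeuNT replicates 2 and 4 (1.44 and 0.99). Without both of these NeuNT/H1074R tumours Pik3c2b differed by 0.50 (limma, adjusted p = 0.726) and Pik3cg by 0.84 (limma, adjusted p = 0.726), a fit added after the values had been seen. The part of these markers in the values was not tested.

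The tissue label was checked against epithelial markers, of which Epcam (10.18 to 10.99), Krt8 (9.78 to 10.89) and Krt18 (10.36 to 11.36) were bright in all tumours. Others of the luminal list were uneven or lower, with Krt19 from 5.37 to 11.52, Elf3 from 6.86 to 8.64 and Cldn7 from 7.17 to 8.32. The mean of 11 luminal markers lay between −0.03 and 0.07 of its average in NeuNT and between −0.50 and 0.34 in NeuNT/H1074R. That mean is not scaled by gene, so Krt19, which had the widest range of the 11, weighs most in it. White blood cell markers were present too, with Ptprc, the gene of the pan-leukocyte antigen CD45, at 6.72 to 7.61 in NeuNT and 5.84 to 7.51 in NeuNT/H1074R. The arrays had medians from 4.81 to 4.87, and correlations over all probes between pairs of arrays ran from 0.956 to 0.984.

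The 3 subunits known from white blood cells were therefore set beside 16 pan-leukocyte markers, none of which is a member. All 16 were tested, 0 passed, 15 were lower and 1 was higher in NeuNT/H1074R, with a median log2 difference of −0.22. Over all genes tested, 49.5% were higher. The marker mean per tumour ran from −0.29 to 0.43 in NeuNT and from −0.71 to 0.34 in NeuNT/H1074R. NeuNT/H1074R replicate 3 was the lowest, as it was for Pik3cd, Pik3r5, Pik3cg and Pik3ca. Among lists of single leukocyte types, each with 0 calls, all genes tested were lower for macrophages (10, median −0.34), T and NK cells (7, −0.33) and mast cells (6, −0.85). The B cell list had 2 higher and 2 lower (median −0.12), and the neutrophil list 2 higher and 3 lower (median −0.03). The 6 adipocyte genes were also all lower (median −0.84). Fibroblast genes had 1 higher and 7 lower (median −0.29), and endothelial genes 2 higher and 4 lower (median −0.16). None of these genes passed, and 0 of all genes tested did, so the calls do not tell the lists apart. At an unadjusted p under 0.05 (limma) there were 4 of the 6 mast cell genes, against 3.82% of all genes tested. The pan-leukocyte, adipocyte and fibroblast lists had 1 such gene each, and the other lists named here had 0. No list was tested as a set. In bulk tumours, a lower value from fewer white blood cells and one from less of these transcripts per cell cannot be told apart.

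Pik3cd rose and fell with this marker mean across the 8 tumours, with Pearson's r = 0.95 (exact permutation p = 4.96e-05, adjusted p = 0.000893 over 18 relations) and Spearman's rho = 0.98 (exact permutation p = 0.000397, adjusted p = 0.00714). Within genotypes r was 0.98 in NeuNT and 0.95 in NeuNT/H1074R, and without the 2 tumours farthest from the median marker mean, NeuNT replicate 1 and NeuNT/H1074R replicate 3, it was 0.90 (exact permutation p = 0.00833, n = 6). Without NeuNT/H1074R replicate 3 alone r was 0.92 and no longer passed over the 18 relations (exact permutation, adjusted p = 0.0536). For Pik3r5 r was 0.93 (exact permutation p = 0.00176, adjusted p = 0.0158), and rho was 0.79 and did not pass (exact permutation p = 0.0279, adjusted p = 0.221). Its r was 0.76 within NeuNT, 0.98 within NeuNT/H1074R and 0.81 without the same 2 tumours (exact permutation p = 0.05, n = 6). The Pik3r5 relation no longer passed without NeuNT replicate 1 (adjusted p = 0.0607, exact permutation) or without NeuNT/H1074R replicate 1 (0.05), 2 (0.0554), 3 (0.118) or 4 (0.0607), with r from 0.85 to 0.94 in these 5 cases.

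Pik3cg had r = 0.21 and rho = 0.02 with the same markers (exact permutation p = 0.621 and 0.977, adjusted p = 0.778 and 0.977), and r = −0.74 without the 2 tumours farthest from the median (exact permutation p = 0.0736, n = 6). Its r was −0.40 within NeuNT and 0.62 within NeuNT/H1074R. Of the 18 relations, 9 members with the leukocyte and with the luminal marker mean, those of Pik3cd and Pik3r5 with leukocyte markers were the 2 that passed. The share of all genes tested that reaches such an r with these markers was not computed. For Pik3ca the leukocyte relation was r = 0.68 and rho = 0.55 (exact permutation p = 0.0643 and 0.171, adjusted p = 0.231 and 0.442). With the luminal markers the farthest from 0 was that of Pik3cg, r = −0.71 and rho = −0.76 (exact permutation p = 0.0426 and 0.0368, adjusted p = 0.231 and 0.221), which was −0.36 without NeuNT/H1074R replicates 3 and 4.

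**Figure D3:**
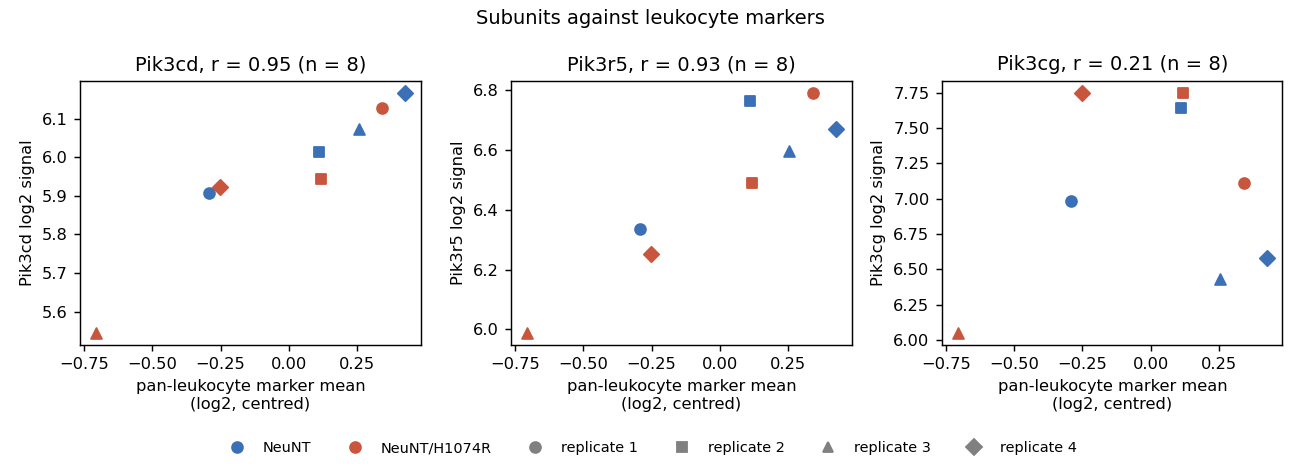
Log2 signal of Pik3cd, Pik3r5 and Pik3cg (y axes) against the mean of 16 pan-leukocyte markers per tumour, centred on the 8 tumours (x axes), with colour for genotype and shape for replicate. Pik3cd and Pik3r5 climb from NeuNT/H1074R replicate 3 at the lower left (r = 0.95 and 0.93), and Pik3cg does not (r = 0.21).

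The upstream sequences of these 3 genes are shown because their products are the subunits best known from white blood cells, and the relation to leukocyte markers passed for Pik3cd and Pik3r5 and not for Pik3cg, a difference that was not itself tested. Each line gives the 250 bases before a RefSeq transcription start on mouse assembly GRCm38.p6, 5′ to 3′ on the strand of the gene, with every AGGAAG (on either strand, so AGGAAG or CTTCCT, overlapping matches included) in capitals. AGGAAG was taken as a form of the binding site of ETS factors, a family that includes the blood cell factor PU.1. Other forms of that site were not searched, so a window without capitals may still hold an ETS site. Of the 3 windows of Pik3cd, none of which holds the letters, the one farthest upstream is shown. Of the 2 windows of Pik3cg the inner one is shown, chosen by another rule, because it holds more matches.
Pik3cd, chr4:149698709-149698958, minus strand: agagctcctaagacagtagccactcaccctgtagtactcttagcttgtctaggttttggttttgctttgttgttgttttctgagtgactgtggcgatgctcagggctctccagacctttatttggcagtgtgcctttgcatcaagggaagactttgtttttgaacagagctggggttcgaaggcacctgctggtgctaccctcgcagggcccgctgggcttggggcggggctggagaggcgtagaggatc
Pik3r5, chr11:68431875-68432124, plus strand: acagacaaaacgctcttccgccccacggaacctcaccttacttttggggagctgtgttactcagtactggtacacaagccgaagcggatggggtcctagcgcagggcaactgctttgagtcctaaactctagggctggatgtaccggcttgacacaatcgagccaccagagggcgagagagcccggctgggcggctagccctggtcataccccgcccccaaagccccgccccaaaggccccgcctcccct
Pik3cg, chr12:32208471-32208720, minus strand: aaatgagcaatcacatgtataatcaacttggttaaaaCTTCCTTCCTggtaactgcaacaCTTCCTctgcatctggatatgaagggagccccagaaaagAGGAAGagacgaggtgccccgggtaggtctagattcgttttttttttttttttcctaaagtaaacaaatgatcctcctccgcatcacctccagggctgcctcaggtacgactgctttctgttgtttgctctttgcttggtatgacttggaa

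The Pik3cg window held 4 matches, which start 213, 209, 190 and 151 bases before the start site, and the first pair of them overlap. The second Pik3cg window, which overlaps this one, held the first pair again. No window of Pik3cd or Pik3r5 held AGGAAG, which does not show that they lack other forms of ETS sites. Over all members, 4 of 15 windows held AGGAAG, the others being 1 window each of Pik3r3 and Pik3c2b, against 29.5% of the 32851 windows in the table. The forkhead core GTAAACA (or TGTTTAC), the core bound by FoxO factors, which PI3K signalling restrains, was in 1 of the 15, the Pik3cg window shown, against 3.17% of all windows. GC content ran from 38.8% to 78.0% over the 15 windows, with the highest in Pik3cb, 76.4% and 42.4% at the outer and inner start of Pik3r1, and 44.0% and 38.8% in the windows of Pik3cg, against a median of 52.4% over all windows. A match is a description of letters and does not show that a factor binds there.

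Relations between the members themselves were computed for all 36 pairs, of which 0 passed after adjustment (exact permutation of Pearson's r) and 7 had an unadjusted p under 0.05. Pik3cd and Pik3r5 had r = 0.90 and rho = 0.86 (exact permutation p = 0.00243 and 0.0107, adjusted p = 0.0875 and 0.261), and r = 0.84 without NeuNT replicate 4 and NeuNT/H1074R replicate 3 (exact permutation p = 0.0528). Pik3cg and its partner Pik3r5 had r = 0.30 and rho = 0.12 (exact permutation p = 0.474 and 0.793, adjusted p = 0.897 and 0.892; r = 0.04 without NeuNT/H1074R replicates 3 and 4). For Pik3cg and Pik3r1 r was 0.82 and rho 0.83 (exact permutation p = 0.0171 and 0.0154, adjusted p = 0.182 and 0.261), with r = 0.98 within each genotype and 0.89 without NeuNT/H1074R replicates 3 and 4 (exact permutation p = 0.0306). Whether these r values of Pik3cg differ from each other was not tested.

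The regulatory genes Pik3r1 and Pik3r2 had r = 0.86 and rho = 0.67 (exact permutation p = 0.00826 and 0.0831, adjusted p = 0.149 and 0.499). That relation rested on NeuNT tumours, where r was 0.97, against −0.49 in NeuNT/H1074R, and it was 0.56 without NeuNT replicates 2 and 3 (exact permutation p = 0.249). Pik3cb had negative values with Pik3c2b, r = −0.76 and rho = −0.71 (exact permutation p = 0.0304 and 0.0576, adjusted p = 0.182 and 0.415; r = −0.91 without replicate 2 of each genotype, exact permutation p = 0.0194), and with Pik3r1, r = −0.73 and rho = −0.81 (exact permutation p = 0.0433 and 0.0218, adjusted p = 0.222 and 0.261; r = −0.46 without the same tumours, exact permutation p = 0.357).

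**Figure D4:**
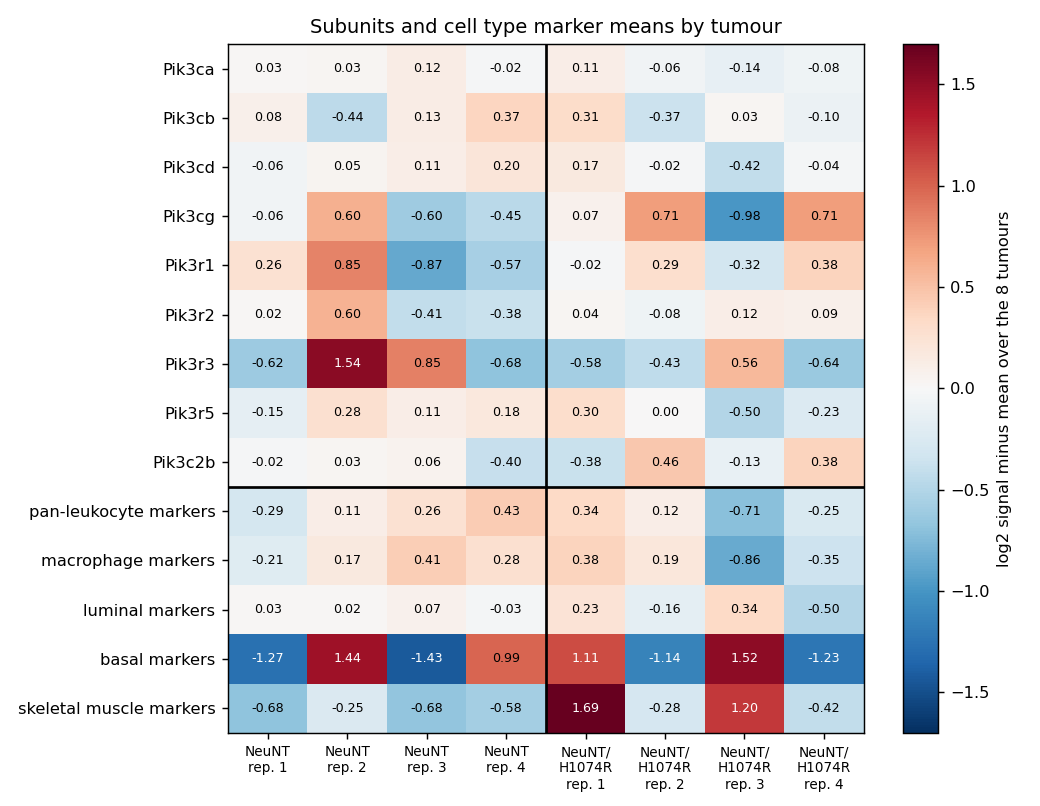
Log2 signal minus the mean over the 8 tumours (colour and printed value) for the 9 members and, below the line, the means of 5 marker lists, with a column per tumour. Pik3cd and Pik3r5 are lowest in NeuNT/H1074R replicate 3, where pan-leukocyte markers stand at −0.71 and macrophage markers at −0.86, and Pik3r3 is highest in NeuNT replicate 2, at 1.54.

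The balance between subunits was followed as the difference of log2 signals within an array, centred on the 8 tumours, because signals of different probes are not on one scale. The mean of Pik3ca, Pik3cb and Pik3cd minus the mean of Pik3r1, Pik3r2 and Pik3r3 was 0.13, −1.11, 0.26 and 0.73 in NeuNT and 0.38, −0.08, −0.29 and −0.02 in NeuNT/H1074R replicates 1 to 4. NeuNT replicate 2 was shifted furthest towards the regulatory side and NeuNT replicate 4 towards the catalytic side, with all NeuNT/H1074R tumours between them. The difference between the genotype means was −0.003, with SDs of 0.79 in NeuNT and 0.28 in NeuNT/H1074R (n = 4 each). It ran from −0.37 without NeuNT replicate 2 to 0.24 without NeuNT replicate 4. These balances are descriptions and were not tested. In NeuNT replicates 2 and 4, in that order, fibroblast markers stood at 0.80 and −0.57 and endothelial markers at 0.52 and −0.45. The lowest fibroblast value, −0.66, was in NeuNT/H1074R replicate 4, where the balance was −0.02. The part of these cell types in the balance was not tested.

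For Pik3r1 against Pik3ca the centred values were 0.24, 0.82, −0.996 and −0.55 in NeuNT and −0.13, 0.35, −0.18 and 0.45 in NeuNT/H1074R, so that the ratio of these signals differed up to 3.51-fold between tumours. That range was set by 2 NeuNT tumours, replicates 2 and 3, and the difference between genotypes, 0.25, was −0.04 without replicate 3 and 0.56 without replicate 2. Pik3cd against Pik3ca was the steadiest balance, with a 1.42-fold range and a difference between genotypes of −0.07, which moved to 0.006 when NeuNT/H1074R replicate 3 was left out and to −0.11 when NeuNT replicate 1 was. Pik3cb against Pik3ca had a 1.81-fold range and a difference of 0.01, which was −0.14 without NeuNT replicate 2 and 0.14 without NeuNT replicate 4.

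Pik3r3 against Pik3r1 had the widest range, 6.66-fold, from −1.01 in NeuNT/H1074R replicate 4 to 1.72 in NeuNT replicate 3, with a difference of −0.71 between genotypes that was −0.25 without NeuNT replicate 3, and −1.12 without NeuNT replicate 1 or without NeuNT/H1074R replicate 3. Pik3r5 against Pik3cg spanned 3.16-fold, from −0.95 in NeuNT/H1074R replicate 4 to 0.71 in NeuNT replicate 3, and differed by −0.47, moving to −0.23 when NeuNT/H1074R replicate 4 was left out and to −0.71 when replicate 3 was. The genotypes overlapped in all 9 balances computed.

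**Figure D5:**
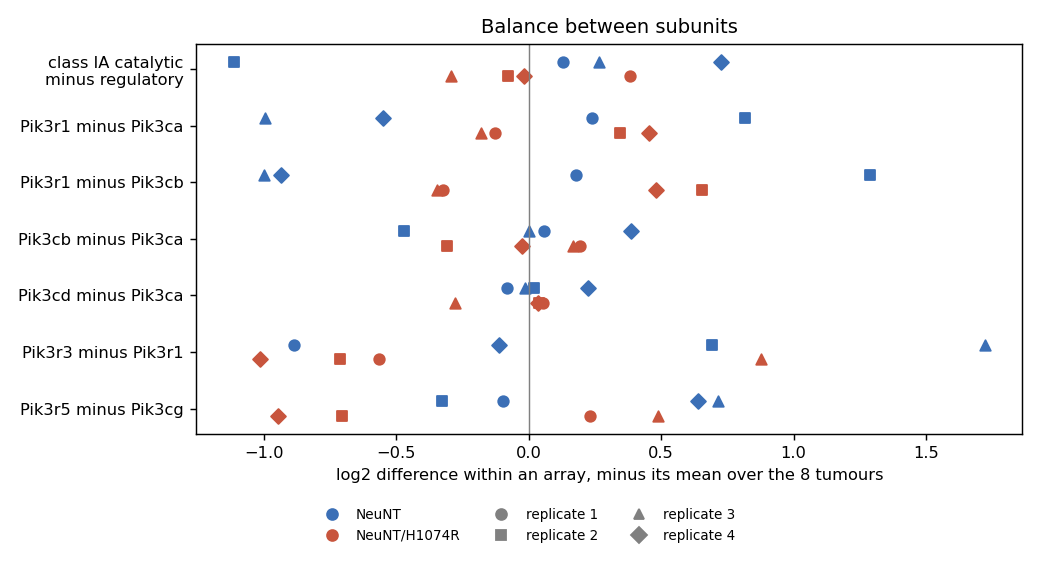
Within-array log2 difference between subunits, minus its mean over the 8 tumours (x axis), for 7 balances (y axis), with colour for genotype and shape for replicate. Points to the right are tumours with relatively more of the first-named subunit; Pik3r3 minus Pik3r1 spreads from −1.01 to 1.72 and Pik3cd minus Pik3ca from −0.28 to 0.22.

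By Pearson's r over the 8 tumours, the tested genes most like Pik3cd were Lrrc15 (r = 0.98), the lysosomal protease gene Ctsd (0.97) and Igsf6 (0.97). Those most like Pik3r5 were Adgre1, the gene of the macrophage antigen F4/80 (0.97), Prcp (0.97) and the nucleotide receptor gene P2ry6 (0.96). Adgre1 is also one of the 10 macrophage markers listed. For Pik3cg they were the ferritin receptor gene Ncoa4 (0.99), Ebpl (0.98) and Shisa5 (0.97), and for Pik3r1 the protein kinase A gene Prkaca, Zfhx2 and Atxn7 (0.98, 0.97 and 0.97). For Pik3ca they were Bccip, Olfml3 and Arf2 (0.97, 0.97 and 0.96), for Pik3cb Rp1l1, Dpep3 and Eif1a (0.98, 0.97 and 0.97) and for Pik3r2 Nexn, Adgrl1 and Lrp3 (0.98, 0.98 and 0.97). For Pik3r3 they were the RNA helicase gene Skiv2l (0.99), Gga2 (0.97) and Atp5d (0.96), and for Pik3c2b Adamts3, Paqr6 and Vps13a (0.98, 0.98 and 0.97). The best matches of the 9 members ran from r = 0.969 to 0.991 among 14825 genes, so a high r over 8 tumours sets none of them apart.

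The other genes of the pathway gave 0 calls as well. Of 7 further PI3K genes, 4 were higher and 3 lower, with a median difference of 0.06, and 0 passed. The smallest unadjusted p belonged to Pik3ap1, a B cell adaptor of PI3K, at 0.51 ± 0.37 (SE), and Pik3r4, the regulatory partner of the class III kinase, at 0.24 ± 0.19 (SE), neither of which passed (limma, adjusted p = 0.978). Of the genes of adaptors and GTPases that bring PI3K to the membrane, 17 of 20 were tested. Of these 15 were lower and 2 higher, with a median of −0.12 and 0 calls, where 49.5% of all genes tested were higher. Crkl stood at −0.22 ± 0.12 (SE) and Rac1 at −0.24 ± 0.13 (SE). The mean of that list stood at 0.10, 0.02, −0.21 and −0.10 in NeuNT/H1074R replicates 1 to 4, and NeuNT tumours lay between −0.02 and 0.10.

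Of 15 tested genes for the supply and use of the substrate lipids, of 16 listed, 7 were higher and 8 lower (median −0.03, 0 calls), and 3 had groups that did not overlap, against 2.69% of all genes tested. Plcg2, a phospholipase C that cleaves PIP2, stood at 7.67, 7.72, 7.54 and 7.56 in NeuNT and at 8.89, 8.05, 8.37 and 8.34 in NeuNT/H1074R replicates 1 to 4. Each NeuNT/H1074R tumour was thus above every NeuNT tumour, and the log2 difference was 0.79 ± 0.18 (SE). Over all genes tested it missed the threshold (limma, adjusted p = 0.978). The phosphatidylinositol kinase gene Pi4k2a went the other way, with 8.19 to 8.59 in NeuNT and 7.92 to 8.19 in NeuNT/H1074R, where replicate 1 of each genotype met at the same value to 2 decimals. Its log2 difference was −0.44 ± 0.13 (SE), which also missed the threshold (limma, adjusted p = 0.978).

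Phosphatases of PIP3 and its product were tested for 9 of 12 genes, with 3 higher and 6 lower, a median of −0.07 and 0 calls. Synj1 stood at −0.40 ± 0.18 (SE) and Inpp5j at 0.46 ± 0.22 (SE). Of 23 listed genes of proteins that bind PIP3 or act next to it, 21 were tested. Of these, 6 were higher and 15 lower, with a median of −0.09 and 0 calls. The ARF exchange factor gene Cyth3 had 8.001 to 8.61 in NeuNT and 7.44 to 7.88 in NeuNT/H1074R, a difference of −0.51 ± 0.17 (SE), and the AKT-related kinase gene Sgk3 differed by −0.76 ± 0.27 (SE); neither passed (limma, adjusted p = 0.978).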

How the data were processed

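Total RNA from 8 tumours was labelled as single-stranded DNA and hybridised to 1 array each, per the labels' protocols. The authors deposited a table of log2 values for 41345 probes; per the submitters' processing notes the tools were the Transcriptome Analysis Console and Affymetrix's Expression Console, and how background and scale were handled was not given in the material used here. Values were used as deposited, from 0.887 to 13.6; that the scale is log2 was read from this range.

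A gene was represented by its single-symbol probe of highest mean, and the lowest 25% of genes by mean were left out. Genotypes were compared with limma 3.58.1 in R 4.3.3 (lmFit, eBayes with an intensity trend, no covariate, two-sided, Benjamini-Hochberg adjustment across all 16635 genes, threshold 0.05), after the code had been tested on simulated data. Correlations used exact two-sided permutation, with all pairings enumerated in Python 3.11.15, adjusted within families of 18 and 36. Marker means average each gene's deviation from its mean over the tumours. Array number limits the precision, and no batch is named in the labels.

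Genes named were the members, the 3 tested genes with highest r to each (predicted, clone, small RNA, olfactory and vomeronasal receptor names left out), and, for each pathway list, the 2 of smallest p where none passed. Members and lists were chosen with earlier results of these data known. Alternatives left out tumours, rescaled the arrays, or changed the filter, probe rule, variance model or test.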

Additional observations from a re-analysis of the deposited data

Results flagged for a closer look

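Pik3c2b in NeuNT replicate 4, at a log2 signal of 6.81, lay far below the other NeuNT tumours, which ran from 7.19 to 7.27. Its gap to the nearest of them was 0.836 of the group's range, above Dixon's 95% critical value for 4 samples. It was the 1 such tumour among 18 groups of 4 examined (9 members in each genotype), and chance alone marks about 1 group in 20.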

How the results depend on the processing

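The count of genes past the threshold, of members past it and of pairs of members past it was 0 under every alternative run for each, which for genes and members includes the fit without both tumours with high muscle markers. When single tumours were left out in turn, 3 member differences changed sign: Pik3cb ran from −0.23 to 0.044, Pik3r1 from −0.10 to 0.48 and Pik3r2 from −0.040 to 0.30. No rescaling of the arrays turned the direction of a member. The count of relations between members and markers was 2, with 0 to 2 when single tumours were left out. The leukocyte relations of Pik3cd and Pik3r5 passed with quantile normalization (r = 0.94 for both), with macrophage markers instead (0.93 for both) and with values centred on each genotype (0.94 and 0.92), the last pair of settings chosen after the data were seen. Relations that did not pass could change sign. With luminal markers, r of Pik3r5 was −0.036 with quantile normalization and ran from −0.40 to 0.75 over single tumours left out, that of Pik3r2 from −0.080 to 0.18, that of Pik3ca from −0.081 to 0.84 and that of Pik3cd from −0.49 to 0.58. With leukocyte markers, r of Pik3r3 ran from −0.25 to 0.17 and that of Pik3cg from −0.47 to 0.39. The cause of these changes was not tested. No paired analysis was possible because the genotypes have no tumour number in common.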

Other observations

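Pik3c2g, a class II PI3K gene outside the 9 members and chosen here after its values were seen, had a log2 signal of 5.94 in NeuNT replicate 2 and 3.99 to 4.21 in the other 7 tumours, close to the limit for dim genes of 4.06. The same tumour had the highest Pik3r1, Pik3r2 and Pik3r3 of the 8. Its Pik3cb was the lowest.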
